A study of Mus musculus with 30 samples.

Results

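Collagens are the proteins that give the vessel wall its tensile strength. The genes described here are all those whose mouse symbol has the form Col, a type number, the letter a and a chain number, which 44 of the 78334 gene identifiers in the count table met. Of these, 11 encode chains of fibrillar collagens, 6 encode the chains of type IV collagen of basement membranes, and 27 encode other collagens. Expression was measured by RNA-seq in 30 libraries of murine aortic smooth muscle cells that had been starved of serum for 48 h in a medium with ascorbic acid, in 9 groups that belong to 2 sequencing runs. The study concerns CASC15, a long noncoding RNA, whose mouse gene is listed as 2610307P16Rik.

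Run 2 held untreated cells only. It compared cells transfected with an antisense oligonucleotide (GapmeR) against total CASC15 with a control GapmeR (2 libraries each), and cells overexpressing total CASC15 with an overexpression control (3 libraries each, called the plasmid control here). Run 3 held 4 libraries in each of 5 groups. These were a knockdown control without treatment, with angiotensin II at 10 ng/ml (AngII, a peptide hormone that constricts vessels) or with 10 to 30 ng/ml of PDGF-BB, a mitogen of smooth muscle cells, and a knockdown of long CASC15 without treatment or with AngII. Treatments lasted 24 h and transfections at least 24 h. The labels name the long CASC15 groups CASC15 in the first library and by rising numbers up to CASC22 in the others, so the groups were taken from the library names, which call all of them lCAS. The labels do not define total and long CASC15, do not say whether the run 3 knockdown and its control used GapmeR or siRNA, and do not say that replicates came from separate cultures, so the p-values measure the spread between these libraries, which may be technical. Within a run, each replicate number is tied to a batch, P16 to P19, and a batch holds at most 1 library of a group. The growth text speaks of mouse and rat cells, while the titles name murine cells only.

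A collagen molecule is a triple helix of 3 alpha chains, which are hydroxylated and folded in the endoplasmic reticulum, secreted, trimmed and cross-linked. Fibrillar collagens form the banded fibrils of the adventitia and media, type IV collagen forms the sheet-like network that surrounds each smooth muscle cell, and the remaining families coat fibrils, link them to other structures or form networks and filaments of their own. Smooth muscle cells are the main source of collagen in the aortic media, and the balance between collagen types is known to shift when these cells leave the contractile state.

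Library totals were 18007184 to 21881948 counts for run 2, and for run 3 they were 15771489 to 30362053. The level of 2610307P16Rik rose with overexpression (log2 fold change 6.79, adjusted p = 1.88e-05) and fell in long CASC15 knockdown without treatment (log2 fold change -0.95, adjusted p = 0.000832) and under AngII (-0.79, adjusted p = 0.00372). Its level also fell under PDGF-BB in control cells (log2 fold change -0.62, adjusted p = 0.0101). In the libraries labelled total CASC15 knockdown it was not lower (log2 fold change 0.36, adjusted p = 0.739), so directions in that comparison are those of libraries with this label. Of the smooth muscle markers, Acta2 lay between 96.5 and 441 CPM (counts per 1000000 of the scaled library total) and Cald1 between 417 and 855 CPM over all 30 libraries, while Cnn1 reached no more than 5 counts in any library, Tagln no more than 3.45 CPM and Myh11 no more than 6.67 CPM. The fibroblast-associated proteoglycan gene Dcn lay between 563 and 2180 CPM and Tcf21 had 0 counts throughout. Of the endothelial markers Cdh5 reached at most 1 count, while Vwf reached 6.14 CPM and Pecam1 3.27 CPM. Of the macrophage markers Ptprc reached at most 2 counts, while Cd68 reached 15.9 CPM and Csf1r 4.52 CPM. Epithelial Cdh1 (35.1 to 195 CPM) and chondrocyte Sox9 (54.2 to 223 CPM) were present in every library. Libraries of batch P19 stood apart from those of P16 to P18 for several collagen genes, most visibly in long CASC15 knockdown, and the counts of members called in run 3 and with overexpression, the class shares and the chain ratios of run 3 and the counts of pathway genes are also given without that batch.

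Promoter sequence was looked up for the members in RefSeq (GRCm38.p6), which gave the 250 bases before the transcription start for 35 of the 44 genes. Against the exons of GENCODE M21, 19 of these windows hold no exonic base, 10 hold some and 6 are exonic throughout, and exonic bases are not printed. The 4 windows below belong to Col3a1, Col11a1 and Col27a1, which are 3 of the 6 fibrillar genes that rose in long CASC15 knockdown, and to Col15a1, the member with the largest rise under PDGF-BB. Each runs 5′ to 3′ over the 250 bases before the RefSeq start, with no base inside an annotated exon, and capitals mark a TATA box, a CCAAT box or a GC box on either strand.
Col3a1 (chr1:45311288-45311537, plus strand): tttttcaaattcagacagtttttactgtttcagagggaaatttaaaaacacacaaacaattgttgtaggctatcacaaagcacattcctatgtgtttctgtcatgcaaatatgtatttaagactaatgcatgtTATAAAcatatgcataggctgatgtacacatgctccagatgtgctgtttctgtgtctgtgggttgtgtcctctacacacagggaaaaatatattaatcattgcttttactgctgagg
Col11a1 (chr3:114030290-114030539, plus strand): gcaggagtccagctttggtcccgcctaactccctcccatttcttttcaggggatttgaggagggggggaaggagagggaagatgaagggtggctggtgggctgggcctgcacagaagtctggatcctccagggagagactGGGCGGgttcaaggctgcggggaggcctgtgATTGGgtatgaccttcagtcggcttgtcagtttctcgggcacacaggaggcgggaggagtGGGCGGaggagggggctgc
Col27a1 (chr4:63215162-63215411, plus strand): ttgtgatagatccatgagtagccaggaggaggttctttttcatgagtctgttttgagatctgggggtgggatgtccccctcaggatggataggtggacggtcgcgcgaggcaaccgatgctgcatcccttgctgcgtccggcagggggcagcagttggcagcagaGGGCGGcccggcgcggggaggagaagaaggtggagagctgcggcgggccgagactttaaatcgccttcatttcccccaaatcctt
Col15a1 (chr4:47207762-47208011, plus strand): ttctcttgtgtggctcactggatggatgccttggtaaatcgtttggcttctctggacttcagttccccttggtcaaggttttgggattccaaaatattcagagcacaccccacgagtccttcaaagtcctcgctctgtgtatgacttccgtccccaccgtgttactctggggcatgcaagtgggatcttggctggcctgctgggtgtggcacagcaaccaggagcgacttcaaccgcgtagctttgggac
The letters searched for the TATA box were TATAAA. Those of the CCAAT box are its name, and those of the GC box were GGGCGG. The Col3a1 window holds 1 TATA box, which begins 117 bases before the start, and no GC box, with a G+C content of 35.2%. The Col11a1 window holds 2 GC boxes, 110 and 19 bases before the start, and a CCAAT box 79 bases before it, at 62.4% G+C, and the Col27a1 window holds 1 GC box 85 bases before the start. The Col15a1 window holds none of the 3 motifs. Among all 32851 promoter windows of that length, 12.4% hold the TATA box, 33.8% the CCAAT box and 32.7% the GC box, and among the 35 collagen windows, also searched over all 250 bases with exonic bases kept in, the shares are 14.3%, 34.3% and 60%. In the Col8a2 window 2 GC box matches overlap, 19 and 15 bases before the start. A match is only a match of letters. Of the 6 fibrillar genes that rose, 5 have a window without exonic bases, and 4 of those 5 hold a GC box (Col5a3, Col11a1, Col11a2 and Col27a1, but not Col3a1).

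Type I collagen led the collagen mRNAs in every group. Levels are compared between genes as CPM per kilobase of the longest coding transcript. In untreated control cells of run 3, Col1a1 stood at 362 ± 44.8 CPM per kb (SD, n = 4) and its partner chain Col1a2 at 247 ± 29.3. They were followed by Col6a1 at 83.8 ± 10.6, Col5a2 at 66.8 ± 8.52 and Col6a2 at 61.5 on the same scale. Col6a1 and Col6a2 encode chains of the beaded filaments of type VI collagen, and Col5a2 encodes a chain of type V collagen, which sits inside type I fibrils. Col5a2 and Col6a2 lay within 1 SD of each other. Next came Col14a1 at 50.7, Col8a1 at 33.5, Col4a1 at 28.1, Col4a5 at 19.6 and Col5a1 at 19.3 CPM per kb.

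**Figure D1:**
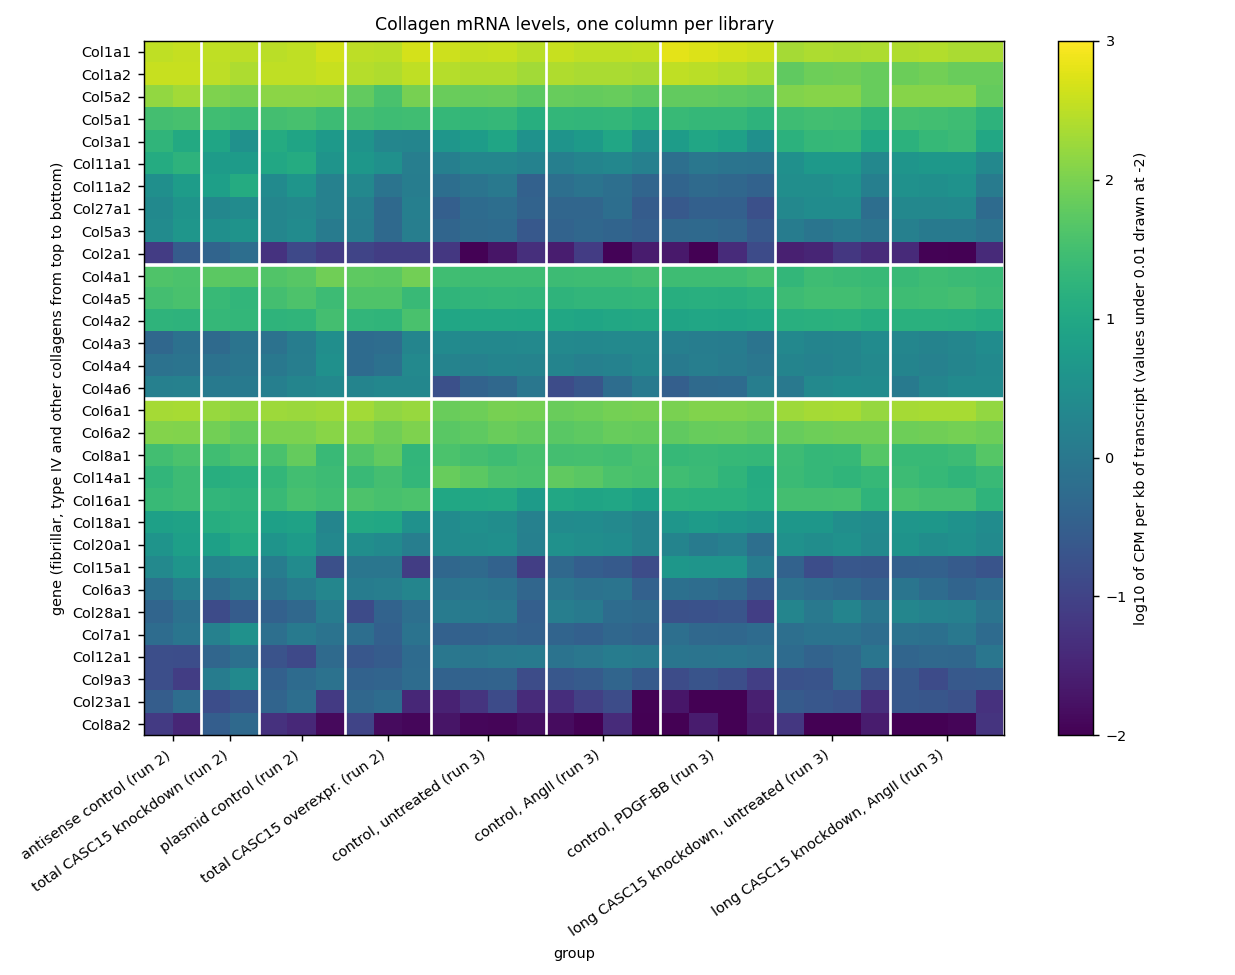
Collagen mRNA levels on a log10 scale of CPM per kb of transcript, with 1 column for each of the 30 libraries grouped by condition and rows for the members that reached 0.5 CPM per kb in some library. Within the control groups Col1a1 and Col1a2 are the brightest rows. Col1a2 is darker in both long CASC15 knockdown groups, and Col15a1 is brighter under PDGF-BB than in the other groups of run 3.

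Type III collagen, the usual companion of type I in vessel walls, was low in these cells. Col3a1 stood at 5.5 ± 2.23 CPM per kb in untreated control cells of run 3 and at 14.8 ± 5.6 in the control GapmeR cells of run 2 (n = 2). The third chain of type VI collagen, Col6a3, stood at 0.75 ± 0.213 CPM per kb beside 83.8 for Col6a1 in untreated control cells of run 3. Both genes were low in all 9 groups: the highest group mean was 18.5 CPM per kb for Col3a1, in long CASC15 knockdown under AngII, and 1.51 for Col6a3, in overexpression. The order of the leading genes differed between groups. Col1a1 ranked first in 8 groups and Col1a2 in the control GapmeR group, where the values were 382 ± 6.84 for Col1a2 and 348 ± 20.7 for Col1a1. In plasmid control these genes nearly tied, at 358 CPM per kb for Col1a1 and 355 for Col1a2. In both long CASC15 knockdown groups Col6a1 ranked second, at 197 ± 28 CPM per kb without treatment, and Col1a2 ranked behind Col5a2 and Col6a2, at 73 ± 9.82 CPM per kb without treatment and 75.3 ± 6.52 with AngII. The groups of run 2 and run 3 were sequenced separately and were not tested against each other.

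Collagen mRNAs made up 0.522% to 0.878% of all counts as group means. Fibrillar collagens held most of the collagen signal, and their share was lowest in long CASC15 knockdown. Of the summed collagen CPM per kb in untreated control cells of run 3, 69.4% ± 2.21 (SD, n = 4) was fibrillar, 6.14% ± 0.573 was type IV and 24.5% ± 1.63 was other collagens. In untreated long CASC15 knockdown these shares were 51.4% ± 0.954, 8.13% ± 0.315 and 40.4% ± 0.97, and under AngII they were 51.6% ± 1.76, 7.97% ± 0.581 and 40.4% ± 1.25. The AngII control stood at 68.8% ± 1.81 fibrillar. Under PDGF-BB the fibrillar share was 74.2% ± 2.86 and the share of other collagens 21% ± 2.03. In run 2 the fibrillar share was 65% ± 0.354 in control GapmeR cells (n = 2), 64.1% ± 0.707 in the libraries labelled total CASC15 knockdown (n = 2), 62.9% ± 1.16 in plasmid control and 58.5% ± 4.65 in overexpression (n = 3 each). Without batch P19 the mean fibrillar share was 70.4% in untreated control, 51.8% in untreated knockdown, 69.5% in AngII control, 52.2% in AngII knockdown and 75.2% under PDGF-BB. These shares are given as a description, with no test, and rest mainly on Col1a1, Col1a2 and Col6a1. In bulk RNA a change in the share of a cell type and a change in RNA per cell cannot be told apart.

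**Figure D2:**
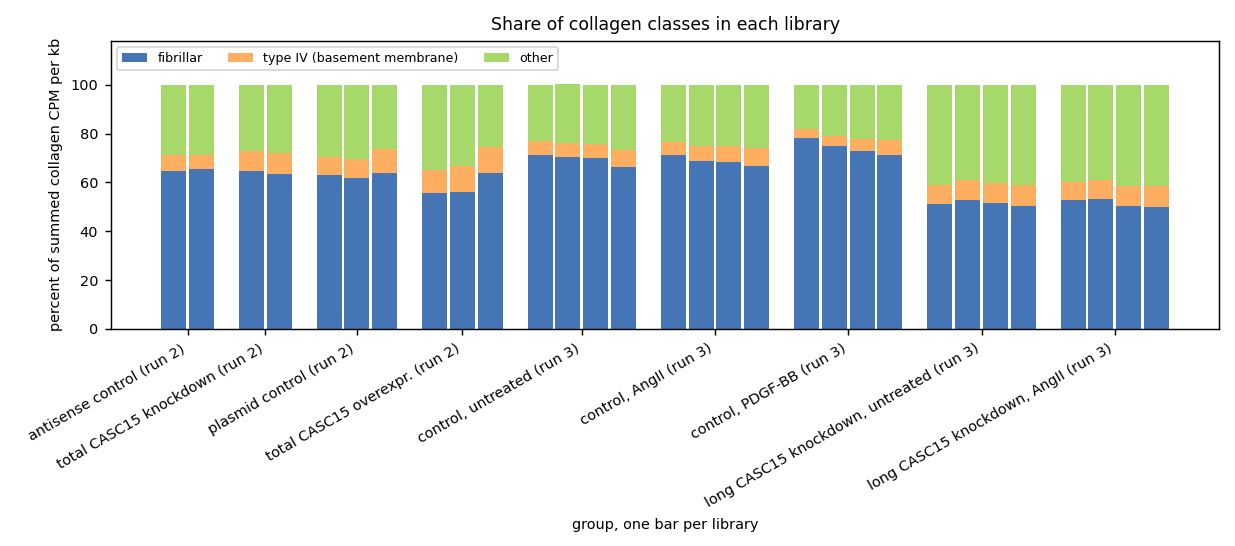
Share of fibrillar, type IV and other collagens in the summed collagen CPM per kb, in percent, with 1 bar per library grouped by condition. The 8 long CASC15 knockdown libraries have the smallest fibrillar part of run 3, with a mean of 51.4% in untreated knockdown against 69.4% in the untreated control libraries.

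In untreated cells, long CASC15 knockdown lowered both chains of type I collagen and 2 collagens that decorate fibrils, and raised most of the minor fibrillar chains, 2 of the 3 measured chains of the classical type VI filament and 3 of the 6 type IV chains. Of the 32 members tested, 18 passed an adjusted p of 0.05, 14 higher and 4 lower, beside 25% of all 15103 genes tested (12.3% higher and 12.8% lower). By class, 8 of 10 fibrillar genes passed (6 higher, 2 lower), 3 of 6 type IV genes (all 3 higher) and 7 of 16 other collagens (5 higher, 2 lower). The median log2 fold change was 1.19 over fibrillar genes, 0.35 over type IV genes and 0.42 over the others, beside 0.015 over all genes tested. Under AngII, where knockdown and control share no library with the untreated comparison, 20 of 32 passed, 16 higher and 4 lower, beside 26.7% of all genes (13.4% higher and 13.3% lower). All 18 genes of the untreated comparison were among those 20 with the same direction (100% of the first list and 90% of the second). The same batches supplied both comparisons.

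**Figure D3:**
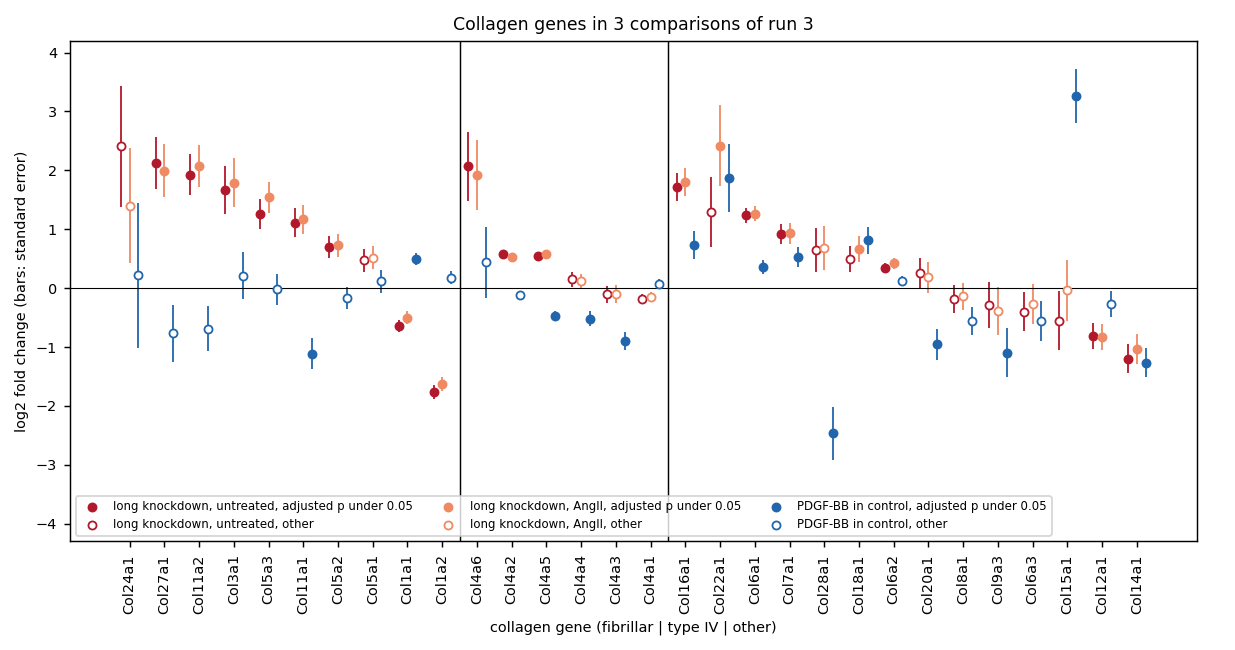
Log2 fold changes with their standard errors for the tested members in 3 comparisons of run 3, ordered within fibrillar, type IV and other collagens, with filled points where the adjusted p was under 0.05. Members at the counting floor in a group are left out. Col1a2 has the lowest value of the fibrillar genes in both knockdown comparisons and Col15a1 the highest value under PDGF-BB.

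Both chains of type I collagen fell. In batches P16, P17, P18 and P19, Col1a2 stood at 1460, 1370, 1370 and 1100 CPM in untreated control cells and at 325, 419, 444 and 373 CPM in untreated knockdown. The groups did not overlap, and the log2 fold change came to -1.76 ± 0.118 SE (adjusted p = 3.09e-09). Under AngII the control libraries stood at 1360, 1260, 1230 and 1140 CPM and the knockdown libraries at 397, 454, 382 and 379 (log2 fold change -1.63 ± 0.118 SE, adjusted p = 6.03e-09). Every knockdown library was under every control library. Col1a1, which encodes the other chain of type I, stood at 2430, 2180, 2210 and 1790 CPM in untreated control cells and at 1280, 1430, 1360 and 1460 in untreated knockdown, again without overlap (log2 fold change -0.64 ± 0.104 SE, adjusted p = 0.000132). Under AngII its log2 fold change came to -0.50 ± 0.104 SE (adjusted p = 0.00134).

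The other fibrillar genes rose or did not pass. Col3a1, the sole chain of type III collagen, stood at 23.2, 32.1, 47.5 and 19.7 CPM in untreated control cells and at 90.7, 119, 124 and 55 in knockdown (log2 fold change 1.67 ± 0.406 SE, adjusted p = 0.00624). All 4 knockdown libraries lay above all 4 controls, and P19 was lowest in each group. Under AngII the log2 fold change of Col3a1 was 1.79 (SE 0.41, adjusted p = 0.00399). Col5a2 stood at 475, 452, 483 and 360 CPM in control cells and at 752, 834, 838 and 450 CPM in knockdown (log2 fold change 0.70 ± 0.191 SE, adjusted p = 0.0116). The P19 knockdown library lay within the control range, and the other 3 lay above it. Its partner chain Col5a1 moved by 0.47 without treatment (adjusted p = 0.0845) and 0.52 under AngII (adjusted p = 0.0564) and passed when batch was a term in the fit (adjusted p = 2.45e-05 and 1.72e-05). Col11a2, a chain of the type XI collagen found inside fibrils, stood at 3.95, 5.09, 6.43 and 2.13 CPM in control cells and at 18, 18, 21.5 and 8.65 in knockdown, without overlap (log2 fold change 1.93 ± 0.35 SE, adjusted p = 0.00052). Col27a1, a fibrillar collagen known from cartilage, stood at 2.52, 4.17, 4.84 and 2.91 CPM in control cells and at 16.4, 20.5, 20.3 and 4.94 in knockdown (log2 fold change 2.12 ± 0.442 SE, adjusted p = 0.00181). The P19 knockdown library exceeded the highest control library only slightly. Col11a1 rose by 1.11 and 1.17 and Col5a3 by 1.26 and 1.54 on the log2 scale without treatment and under AngII.

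Among the type IV genes the abundant chain Col4a1 did not pass, while its partner rose. Col4a1 stood at 198, 183, 183 and 181 CPM in untreated control cells and at 138, 189, 173 and 154 in knockdown, with overlapping groups (log2 fold change -0.19, adjusted p = 0.118, and -0.14 under AngII, adjusted p = 0.228). Col4a2, which joins Col4a1 in the common type IV heterotrimer, stood at 59.1, 64.7, 63.7 and 60.4 CPM in control cells and at 91.2, 95.5, 100 and 82.5 CPM in knockdown. The groups did not overlap (log2 fold change 0.57 ± 0.0723 SE, adjusted p = 7.89e-06), and under AngII the value was 0.53 (adjusted p = 1.9e-05). The 2 genes start head to head on opposite strands and share 22 exonic bases in the annotation, and the labels do not say whether counting used strand. Col4a5 rose by 0.55 (SE 0.0711, adjusted p = 1.13e-05) and 0.58 (adjusted p = 6.22e-06). Col4a6, which pairs with Col4a5 in smooth muscle basement membranes, stood at 1.09, 2.6, 3.24 and 6.47 CPM in control cells and at 7.15, 15.2, 17.9 and 16.9 CPM in knockdown (log2 fold change 2.07 ± 0.587 SE, adjusted p = 0.0154). It did not pass without the P16 control library (1.76, adjusted p = 0.0515). Under AngII the value was 1.92 (adjusted p = 0.0244), which did not pass without the P16 or P17 control library or the P18 knockdown library (adjusted p up to 0.0777). Col4a3 and Col4a4, the chains of the kidney type heterotrimer, did not pass in either knockdown comparison, with log2 fold changes between -0.11 and 0.15.

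Of the 4 type VI chains tested, 3 passed as higher, by unequal amounts, with Col6a6 near the counting floor in control cells. Col6a1 stood at 295, 323, 393 and 363 CPM in untreated control cells and at 771, 873, 928 and 668 CPM in knockdown, without overlap (log2 fold change 1.24 ± 0.125 SE, adjusted p = 5.63e-07). Under AngII the log2 fold change came to 1.27 ± 0.125 SE (adjusted p = 4.5e-07). Col6a2 stood at 249, 272, 328 and 296 CPM and at 326, 359, 392 and 376 CPM, where the P16 knockdown library lay just under the P18 control (log2 fold change 0.34 ± 0.0912 SE, adjusted p = 0.00866). Its value under AngII was 0.42 (adjusted p = 0.00174). Col6a3 was at 8.48, 9.37, 7.98 and 4.47 CPM in control cells and at 7.85, 6.23, 5.22 and 3.56 CPM in knockdown and did not pass (log2 fold change -0.40, adjusted p = 0.418). Col6a6, a rarer type VI chain, had at most 3 counts in any untreated control library and 7 to 16 counts in the knockdown libraries, so it was at least 4.64-fold higher, taking 3 counts per library as the floor. Under AngII it was at least 3.26-fold higher. Col6a6 entered the tests of run 3 through the knockdown libraries, the only ones of that run with more than 3 counts. It was not called in either knockdown comparison when only the groups compared were fitted or with a mean CPM filter of 1.

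Col16a1, Col12a1 and Col14a1 belong to the collagens that attach to fibrils with interrupted helices. Col16a1 stood at 49.1, 51.6, 53.6 and 28.9 CPM in untreated control cells and at 169, 166, 172 and 94.7 in knockdown, without overlap (log2 fold change 1.72 ± 0.235 SE, adjusted p = 4.17e-05, and 1.80 under AngII, adjusted p = 2.64e-05). Col14a1 fell, from 447, 361, 263 and 238 CPM to 164, 140, 121 and 146 CPM (log2 fold change -1.19 ± 0.254 SE, adjusted p = 0.00226). All 4 knockdown libraries lay under all 4 controls. Col12a1 fell from 10.9, 10.8, 12.1 and 12.6 CPM to 6.35, 4.56, 5.55 and 9.92 CPM (log2 fold change -0.81 ± 0.224 SE, adjusted p = 0.0107). Under AngII the log2 fold changes were -1.03 for Col14a1 (adjusted p = 0.00629) and -0.83 for Col12a1 (adjusted p = 0.00945).

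Col7a1, which forms anchoring fibrils, rose by 0.92 and 0.93 on the log2 scale in both knockdown comparisons. Col18a1, the precursor of endostatin, moved by 0.49 without treatment (adjusted p = 0.115) and by 0.67 under AngII (adjusted p = 0.0333). With batch as a term Col18a1 also passed without treatment (adjusted p = 0.00043), and it failed under AngII without the P16, P17 or P18 knockdown library or without the P18 or P19 control library, one at a time (adjusted p up to 0.103). Col22a1 had no more than 4 counts in any AngII control library and 6 to 16 in the AngII knockdown libraries (log2 fold change 2.42, adjusted p = 0.0128). Col8a1, a network collagen made by vascular cells, did not pass in either comparison (log2 fold change -0.19, adjusted p = 0.597, and -0.14, adjusted p = 0.694). Its knockdown libraries stood at 135, 111, 114 and 242 CPM without treatment, so that P19 lay above all 4 controls (199, 162, 145 and 178 CPM) while the other 3 lay under them. With batch as a term, Col23a1, Col24a1 and Col28a1 also passed as higher without treatment and Col28a1 under AngII. For P16 to P19, Col24a1 had only 4, 2, 4 and 0 counts in untreated control and 21, 24, 3 and 0 in untreated knockdown. It was thus not higher in P18 or P19. In that fit 23 of 32 members passed without treatment, beside 40.6% of all genes, and 22 of 32 under AngII, beside 41.3%.

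Several changes were smaller in batch P19. Of the 18 members called in untreated cells, 17 had more than 3 counts in every library compared. All 17 had the same direction in each of the 4 batches, and the smallest log2 ratio in size was that of P19 for 12 of them. Under AngII the direction was the same in every batch for the 18 of 20 called members with such counts, and P19 was the smallest for 14. The log2 ratio of Col27a1 within a batch was 2.71, 2.3, 2.07 and 0.76 for P16 to P19, and that of Col5a2 was 0.66, 0.88, 0.8 and 0.32. For Col1a2 the ratios were -2.17, -1.7, -1.63 and -1.56, and for Col16a1 they were 1.78, 1.69, 1.68 and 1.71. Without batch P19, 24 members passed in untreated cells (40% of all genes) and 23 under AngII (39.9% of all genes), among them all 18 and all 20 named above. Col8a1 was then among the members that passed in both comparisons. Without P19 the log2 fold change was -1.83 for Col1a2, -0.75 for Col1a1, 1.70 for Col3a1 and 2.32 for Col27a1.

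**Figure D4:**
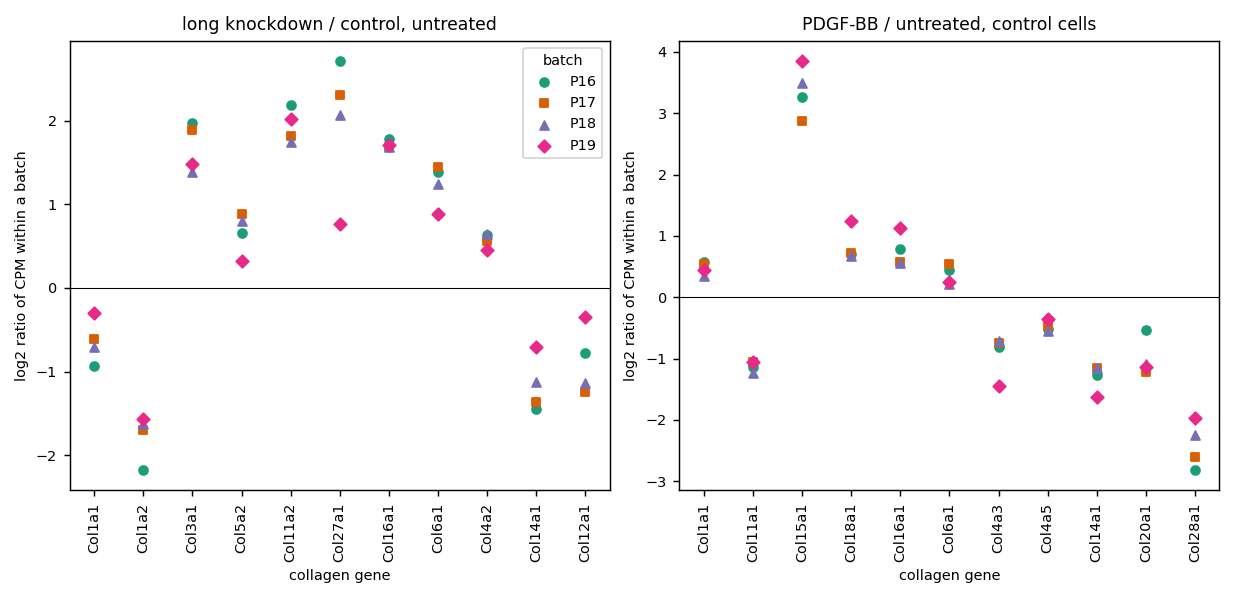
Log2 ratios of CPM within each of the 4 batches for selected members, long CASC15 knockdown over control in untreated cells at left and PDGF-BB over untreated control cells at right, with 1 symbol per batch. At left the P19 symbol lies nearest to 0 for Col27a1, Col5a2, Col6a1, Col14a1 and Col12a1, and at right the 4 batches of Col15a1 lie between 2.87 and 3.85.

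Markers of other cells moved with the knockdown. Without treatment, 5 of 10 tested smooth muscle markers passed (2 higher, 3 lower), as did 3 of 4 fibroblast markers (Pdgfra and Lum higher, Pi16 lower). So did 2 of 2 epithelial markers (Cdh1 and Krt8 lower) and 1 of 2 endothelial markers (Vwf higher). These counts are from the fit without batch as a term and stand beside 25% of all genes tested. Without batch P19, 7 of 10 smooth muscle markers (2 higher, 5 lower) and 4 of 4 fibroblast markers (Dcn, Lum and Pdgfra higher, Pi16 lower) passed, beside 40% of all genes. Vwf ranged from 0.0541 to 0.339 CPM in untreated control and from 0.389 to 0.955 CPM in untreated knockdown. The summed fibroblast markers ranged from 1500 to 1730 CPM in untreated control and from 1710 to 2200 CPM in knockdown, of which Dcn gave the most. Tcf21 was at 0 in both. Of 3 tested chondrocyte markers 1 passed, the transcription factor gene Sox9 (log2 fold change 0.75, adjusted p = 2.45e-05). Comp and Matn3 did not pass (0.25 and -0.94), and the cartilage gene Hapln1 had 0 counts in all libraries. Under AngII, 6 of 10 smooth muscle markers (2 higher, 4 lower), 2 of 4 fibroblast markers (Pdgfra higher, Pi16 lower), 2 of 2 epithelial markers (lower), 1 of 2 endothelial markers (Vwf, higher) and 1 of 3 chondrocyte markers (Sox9, higher) passed in the fit without batch, beside 26.7% of all genes. Without batch P19, 7 of 10 smooth muscle markers (3 higher, 4 lower) passed, beside 39.9% of all genes. So did 3 of 4 fibroblast markers (Pdgfra and Lum higher, Pi16 lower) and 2 of 3 endothelial markers (Pecam1 and Vwf, higher). The part of these markers in the collagen values was not tested.

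AngII left no collagen gene past the threshold. In control cells, 0 of 32 members passed (0% of all genes tested; 0 members and 156 genes at an unadjusted p under 0.05), and in long CASC15 knockdown again 0 of 32 (0% of all genes; 0 members and 174 genes unadjusted). DESeq2 called 0 members in both. The log2 fold changes were -0.06 (SE 0.104) for Col1a1 and -0.09 (SE 0.115) for Col1a2 in control cells, and 0.08 and 0.05 in knockdown. The difference between the AngII response in knockdown and in control cells passed for 0 of 32 members (0% of all genes; 0 members unadjusted, and 0 by DESeq2), with estimates of 0.14 (SE 0.147) for Col1a1, 0.13 (SE 0.163) for Col1a2 and 0.12 (SE 0.565) for Col3a1 on the log2 scale. The untreated libraries are the controls of these comparisons and of the knockdown and PDGF-BB comparisons too.

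PDGF-BB raised Col1a1 and the multiplexins Col15a1 and Col18a1 and lowered Col14a1, Col28a1, Col11a1 and 3 type IV chains. Of 32 members tested, 16 passed (7 higher, 9 lower), beside 43.6% of all genes (23.6% higher and 20% lower), so the share of members called, 16 of 32, was close to the background. Only 2 of 10 fibrillar genes passed (1 higher, 1 lower), 3 of 6 type IV genes passed (all lower), and 11 of 16 other collagens passed (6 higher, 5 lower). The median log2 fold change was 0.05 over fibrillar genes, -0.29 over type IV genes and -0.41 over the others, beside -0.017 over all genes.

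Col15a1, whose protein lies at the junction of basement membranes and fibrils, stood at 2.44, 2.82, 1.9 and 0.44 CPM in untreated control cells and at 23.4, 20.6, 21.2 and 6.36 CPM under PDGF-BB. All treated libraries lay above all untreated ones, with P19 lowest in each group (log2 fold change 3.27 ± 0.462 SE, adjusted p = 1.62e-05). Col18a1, the other multiplexin, stood at 14.4, 18.4, 15.8 and 8.77 CPM and at 23.5, 30.5, 25.1 and 20.9 CPM, without overlap (log2 fold change 0.81 ± 0.222 SE, adjusted p = 0.00616). Col1a1 stood at 2430, 2180, 2210 and 1790 CPM and at 3630, 3190, 2810 and 2430 CPM (log2 fold change 0.49 ± 0.104 SE, adjusted p = 0.00077). Its lowest treated library, P19, equalled the highest untreated one to 3 digits. Col1a2 moved less and did not pass (log2 fold change 0.18 ± 0.115 SE, adjusted p = 0.22). Col16a1 rose by 0.73 (adjusted p = 0.0169), Col7a1 by 0.53 (adjusted p = 0.0179) and Col6a1 by 0.36 (adjusted p = 0.0228) on the log2 scale. Col6a1 lost its call without the P16 or P17 control library or the P17 or P19 treated library (adjusted p up to 0.11), and Col7a1 without the P16 library of either group (up to 0.081). Col22a1 had at most 9 counts in untreated libraries and 11 to 23 under PDGF-BB (log2 fold change 1.88, adjusted p = 0.0123, and 0.0564 without the P19 treated library).

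On the lower side, Col14a1 stood at 187, 162, 119 and 77.5 CPM under PDGF-BB, under all untreated libraries (238 to 447 CPM), with a log2 fold change that came to -1.26 ± 0.254 SE (adjusted p = 0.000684). Col28a1, a collagen with von Willebrand factor A domains, stood at 5.12, 4.66, 4.24 and 1.39 CPM in untreated control and at 0.729, 0.77, 0.896 and 0.356 CPM under PDGF-BB, without overlap (log2 fold change -2.47 ± 0.453 SE, adjusted p = 0.000209). Col11a1 stood at 11.3, 15.1, 15.1 and 12.7 CPM and at 5.16, 7.24, 6.43 and 6.11 CPM, without overlap (log2 fold change -1.11 ± 0.26 SE, adjusted p = 0.00195). Col20a1, another fibril-associated collagen, stood at 12.8, 13.9, 15.8 and 7.52 CPM and at 8.86, 6.01, 7.43 and 3.41 CPM, with overlapping groups (log2 fold change -0.95 ± 0.265 SE, adjusted p = 0.00679). The type IV chains Col4a3, Col4a4 and Col4a5 fell by 0.90, 0.52 and 0.46 on the log2 scale (adjusted p = 7.6e-05, 0.00287 and 2.77e-05). The abundant chains Col4a1 and Col4a2 did not pass (0.07, adjusted p = 0.522, and -0.12, adjusted p = 0.181). Of Col4a3, 5.65% of the exonic bases are shared with an opposite-strand transcript. Col9a3 fell by 1.10 (adjusted p = 0.038) from at most 27 counts, a call that was lost on leaving out any 1 of 6 of its 8 libraries, all but the P19 control and the P17 treated library (adjusted p up to 0.109). In turn, Col6a6 was called as lower with at most 3 counts in any library of either group, for which no fold is given. Col6a6 entered the tests through the knockdown libraries, and it was not called when only the groups compared were fitted. Col3a1 did not pass (log2 fold change 0.21, adjusted p = 0.699).

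With batch as a term, 22 members passed under PDGF-BB, beside 54.5% of all genes, with Col11a2, Col23a1, Col27a1, Col6a3 and Col8a1 added as lower and Col6a2 as higher. Without batch P19, 23 passed, beside 48.9% of all genes, among them all 16. Of the 16, 14 had more than 3 counts in every library compared, and all 14 had the same direction in every batch. All 4 tested fibroblast markers passed under PDGF-BB (Pdgfra, Lum and Dcn lower, Pi16 higher), beside 43.6% of all genes. Pi16 did not pass with batch as a term (adjusted p = 0.055, against 0.0466 without it). The fibroblast sum ranged from 607 to 836 CPM against 1500 to 1730 CPM in untreated control. Of the smooth muscle markers Acta2 fell by 0.94 and Cald1 by 0.37 on the log2 scale, while Smtn and Tpm2 rose. Of the other marker lists, 1 of 2 tested epithelial markers (Cdh1, higher), 1 of 2 endothelial markers (Pecam1, lower), 1 of 3 chondrocyte markers (Matn3, higher) and 0 of 1 macrophage markers passed in the fit without batch. Without batch P19, 2 of 4 chondrocyte markers (Matn3 higher, Sox9 lower) and 2 of 3 endothelial markers (Pecam1 and Tek, lower) passed, beside 48.9% of all genes. Their part in the collagen values was not tested.

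Ratios between chains of 1 collagen type differed between groups without overlap for several pairs, though none passed after adjustment. These ratios were chosen after the values had been seen. The mean ratio of Col1a2 to Col1a1, per kb, was 0.683 ± 0.0129 (SD, n = 4) in untreated control cells, 0.314 ± 0.0381 in untreated knockdown, 0.671 ± 0.0352 in AngII control, 0.307 ± 0.0148 in AngII knockdown and 0.551 ± 0.017 under PDGF-BB. The ratio of Col4a2 to Col4a1 was 0.342 ± 0.0258 in untreated control and 0.584 ± 0.0685 in untreated knockdown. The ratio of Col6a2 to Col6a1 was 0.735 ± 0.0119 and 0.401 ± 0.0638, and that of Col11a2 to Col11a1 was 0.406 ± 0.138 and 0.727 ± 0.132 in the same groups. For these 4 ratios the knockdown and control libraries did not overlap, and the same held under AngII. The ratio of Col5a2 to Col5a1 was 3.51 ± 0.356 in untreated control, 4.02 ± 0.283 in untreated knockdown, with overlap, and 2.87 ± 0.176 under PDGF-BB. Under AngII it was 3.45 ± 0.106 in control and 3.96 ± 0.239 in knockdown, without overlap. In a two-sided exact permutation test each non-overlapping ratio gave p = 0.0286, the smallest that 4 libraries against 4 can give, and after Benjamini-Hochberg adjustment over the 24 ratios and comparisons tested the smallest value was 0.0528, so none passed 0.05. Within batches, 22 of the 24 ratios moved one way in all 4 batches, among them Col4a6 to Col4a5, whose groups overlapped. A two-sided exact sign-flip test over the 4 batches cannot go below 0.125, the value these 22 gave. Without batch P19 the mean ratio of Col1a2 to Col1a1 was 0.684 in untreated control and 0.324 in untreated knockdown, and that of Col4a2 to Col4a1 was 0.343 and 0.596.

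**Figure D5:**
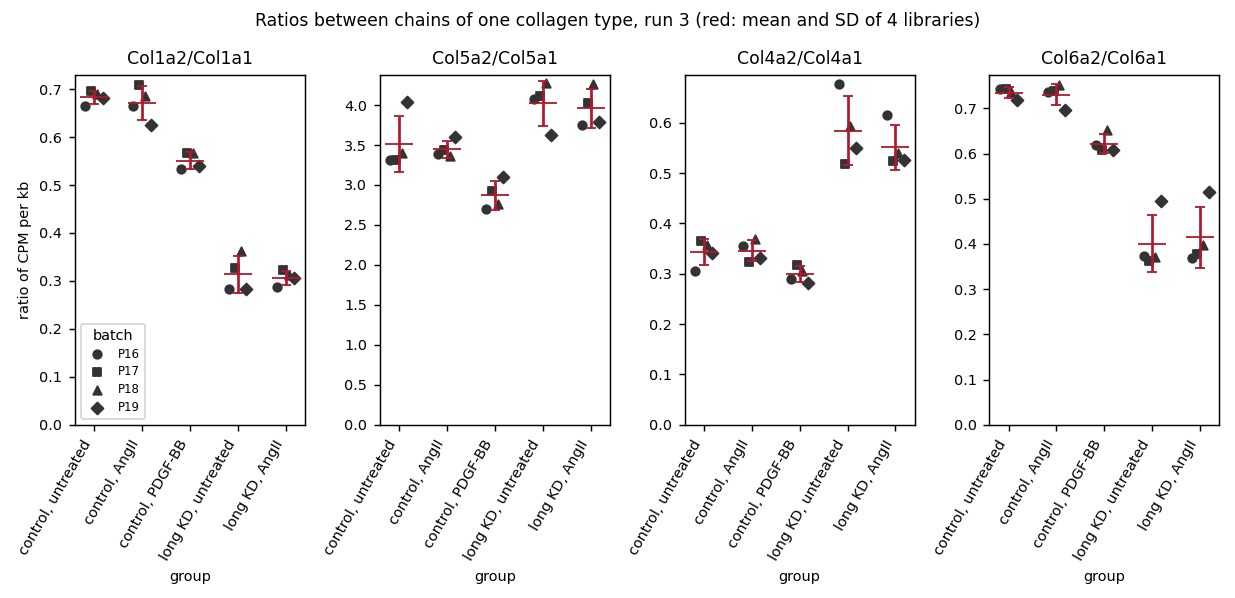
Ratios of CPM per kb between chains of types I, V, IV and VI in the 5 groups of run 3, with 1 symbol per library shaped by batch and the mean and SD of 4 libraries in red. Col1a2/Col1a1 goes from 0.683 in untreated control to 0.314 in untreated knockdown, and Col4a2/Col4a1 goes from 0.342 to 0.584.

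In run 2, 1 of 35 members passed between the libraries labelled total CASC15 knockdown and control GapmeR, beside 2.07% of all 15350 genes tested. This was Col9a3, a chain of the fibril-associated type IX collagen, at 0.49 and 0.247 CPM in control and 3.76 and 7.03 CPM in the labelled knockdown (log2 fold change 3.84 ± 0.562 SE, adjusted p = 0.0142). It did not pass without either control library or without the P18 knockdown library (adjusted p up to 0.142), and 6.07% of its exonic bases are shared with Tcfl5 on the opposite strand. With batch as a term, 19 members passed (9 higher, 10 lower), beside 14.4% of all genes (8.76% higher and 5.63% lower). These were 5 of 11 fibrillar genes (1 higher, 4 lower), 2 of 6 type IV genes (1 higher, 1 lower) and 12 of 18 others (7 higher, 5 lower). With that term, Col1a2 was lower by 0.45 on the log2 scale (adjusted p = 0.0215), from 2070 and 2020 CPM in batches P17 and P18 of the control to 1690 and 1320 CPM. Col3a1 was lower by 1.36 (adjusted p = 0.00303), from 104 and 60.2 CPM to 48.7 and 18.8 CPM, and Col6a1 by 0.52 (adjusted p = 0.0149), from 879 and 908 CPM to 686 and 569 CPM. Col11a1, Col24a1, Col6a2, Col14a1, Col23a1, Col28a1 and Col4a5 were the other 7 lower members. On the higher side Col12a1 went from 1.83 and 1.73 CPM to 5.21 and 8.11 CPM (log2 fold change 1.89, adjusted p = 0.00212), Col18a1 from 39 and 42.8 CPM to 72.2 and 83.5 CPM (0.93, adjusted p = 0.000503) and Col4a1 from 281 and 255 CPM to 361 and 356 CPM (0.42, adjusted p = 0.0162). Col2a1, Col7a1, Col8a2, Col9a3, Col20a1 and Col22a1 were the remaining higher members. Col1a1 did not pass in either fit (log2 fold change -0.08, adjusted p = 0.951). Of 3 tested macrophage markers 2 were higher in the labelled knockdown (Cd68 by 5.19 and Csf1r by 4.30 on the log2 scale), and the sum of the 6 ranged from 0.579 to 0.79 CPM in control and from 17.3 to 21 CPM in labelled knockdown, while Ptprc reached at most 2 counts. In the fit with batch, 2 of 10 smooth muscle markers (Myh11 and Des, higher), 2 of 5 fibroblast markers (Pdgfra and Lum, lower), 2 of 2 endothelial markers (Pecam1 and Vwf, higher), 1 of 2 epithelial markers (Cdh1, higher) and 0 of 3 chondrocyte markers also passed. The endothelial sum ranged from 2.81 to 3.9 CPM in control and from 6.02 to 10.1 CPM in labelled knockdown. The part of these markers in the collagen values was not tested.

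Overexpression of total CASC15 gave 0 of 35 members past the threshold (1.65% of all genes passed; 6 members at an unadjusted p under 0.05, and 4 by DESeq2, which called 5.26% of all genes). With batch as a term, 9 members passed (2 higher, 7 lower), beside 17.7% of all genes (9.4% higher and 8.33% lower). Col3a1 stood at 67.3, 46.1 and 26.5 CPM in batches P17, P18 and P19 of plasmid control and at 20.7, 10.9 and 10.7 CPM with overexpression, lower in each batch and without overlap (log2 fold change -1.71 with the batch term, adjusted p = 0.000532, and -1.72 without it, adjusted p = 0.127). Col1a2 stood at 1810, 1810 and 2070 CPM and at 1510, 1370 and 1760 CPM (-0.30 with the batch term, adjusted p = 0.0455). Col11a1 was lower by 1.47 (adjusted p = 0.00138), and Col4a3, Col4a4, Col15a1 and Col20a1 were the other 4 lower members. Col18a1 and Col22a1 were higher by 0.56 and 1.31 (adjusted p = 0.00302 and 0.024). Col5a2 moved by -1.06 without passing (adjusted p = 0.106), from 891, 917 and 862 CPM to 422, 245 and 616 CPM, and it passed without batch P19, with Col11a1 and Col22a1, beside 5.57% of all genes. Col1a1 gave 1770, 1960 and 2640 CPM and 1840, 1780 and 2790 CPM (log2 fold change 0.01, adjusted p = 0.993). P19 was highest for Col1a1 and Col4a1 in both groups. Of the markers, Myl9 alone passed in the fit without batch (lower, 1 of 10 smooth muscle markers). In the fit with batch, 2 of 10 smooth muscle markers (lower), 3 of 5 fibroblast markers (Pdgfra higher, Lum and Pi16 lower), 1 of 2 epithelial markers (Cdh1, higher), 1 of 3 macrophage markers (Csf1r, higher), 1 of 3 chondrocyte markers (Sox9, lower) and 0 of 2 endothelial markers passed. Without batch P19, Pdgfra and Cdh1 passed as higher and Sox9, Myl9 and Cd68 as lower. Their part in the collagen values was not tested.

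Genes that modify, fold, process, cross-link or bind collagen were followed as a list of 44 genes. In untreated long CASC15 knockdown 15 of 41 tested passed, 1 higher and 14 lower, beside 25% of all genes (12.3% higher and 12.8% lower). The fit with batch passed 22 (4 higher, 18 lower), beside 40.6%, and without batch P19 25 passed (4 higher, 21 lower), beside 40%. The cross-linking enzyme genes Loxl2 and Lox fell by 1.14 and 0.67 on the log2 scale (adjusted p = 2.88e-07 and 0.000302), Pcolce, an enhancer of propeptide removal, fell by 0.42 (adjusted p = 1.78e-05), and Loxl3 was the gene that rose (0.42, adjusted p = 1.8e-05). By role, 3 of 14 hydroxylase and sugar transfer genes, 3 of 8 folding and export genes, 2 of 6 propeptide removal genes, 4 of 5 cross-linking genes and 3 of 8 receptor genes passed. The median was -0.15 over the 41 genes beside 0.015 over all genes. Under AngII 18 of 41 passed, 6 higher and 12 lower, beside 26.7% of all genes, and 21 with batch as a term, beside 41.3%. Without batch P19, 25 passed, beside 39.9%. In all AngII libraries Loxl2 fell by 1.11 (adjusted p = 3.83e-07). Of the 5 lysyl oxidase genes all passed there, Lox, Loxl2 and Loxl4 as lower and Loxl1 and Loxl3 as higher.

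Under PDGF-BB 22 of 41 pathway genes passed, 17 higher and 5 lower, with a median of 0.28, beside 43.6% of all genes (23.6% higher and 20% lower). The fit with batch passed 29 (23 higher, 6 lower), beside 54.5%, and without batch P19 25 passed, beside 48.9%. The 22 included 8 of 14 hydroxylase and sugar transfer genes and 6 of 8 folding and export genes, all of them higher. P4hb, a subunit of prolyl 4-hydroxylase, rose by 0.70 (adjusted p = 8.59e-08), Fkbp10, a collagen chaperone, by 0.74 (adjusted p = 8.51e-08) and Loxl3 by 0.99 (adjusted p = 1.06e-10). Lox fell by 0.77 (adjusted p = 2.68e-05) and Itga11, a collagen-binding integrin chain, by 2.41 (adjusted p = 1.82e-07). In run 2, 1 of 43 pathway genes passed in each comparison, beside 2.07% and 1.65% of all genes, Tll2 as higher in the libraries labelled total CASC15 knockdown and Itga11 as lower with overexpression (log2 fold change -1.16, adjusted p = 0.0489). In the fit with batch 5 and 10 passed in the same order, beside 14.4% and 17.7% of all genes. Without batch P19 overexpression gave 2, beside 5.57%.

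Members that were not tested are those with too few counts. In neither run were Col6a5, Col9a1, Col9a2, Col10a1, Col13a1, Col17a1, Col19a1, Col25a1 and Col26a1 tested, 9 genes in all, and their highest count in any library was 16, for Col10a1. Col10a1, the network collagen of hypertrophic cartilage, had 5, 11, 4 and 11 counts in AngII control and 0, 1, 0 and 0 in AngII knockdown, and it was called in that comparison with no filter on low counts and on leaving out any 1 of 6 of the 8 libraries, all but the P17 and P19 controls. Col26a1 had 0 counts in all 30 libraries, and Col13a1, Col19a1, Col25a1, Col6a5 and Col9a1 had at most 3. Col2a1, Col6a4 and Col8a2 were tested in run 2 only. Because a gene could enter the tests through a group in which it was high, the counts of members called describe the tested members and not all 44.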

How the data were processed

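RNA-seq (paired reads of 75 bases) was made from 30 libraries of aortic smooth muscle cells. Values in the authors' deposited table are RSEM expected counts of genes, made with STAR 2.7.11b and RSEM 1.3.1, per the submitters' processing notes, which name both the GRCm39 and the mm10 builds. Use of strand in the counting is not given in the sources used here. No file coordinates are therefore printed.

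Expected counts were rounded to whole numbers. Identifiers were matched to symbols for 51486 of 78334, which hold 98.7% of the counts. Each run was fitted separately in R 4.3.3 with edgeR 4.0.16 (filterByExpr with a minimum count of 10 and a minimum total of 15, TMM, robust glmQLFit, glmQLFTest, 1 coefficient per group), on 15350 genes in run 2 and 15103 in run 3. Adjusted p-values in the report are from this quasi-likelihood test with Benjamini-Hochberg adjustment over all genes of the run, unless DESeq2 1.42.0 is named. The SE of a log2 fold change was taken as its size divided by the square root of F. CPM were computed from rounded counts and TMM-scaled totals, and CPM per kb from the longest coding transcript (GENCODE M21). Promoter windows came from RefSeq. A gene with at most 3 counts in every library of a group was taken as at the floor. Floors cover counting error only.

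Within a run, same-numbered libraries share a batch, per the labels. Their deviations correlated with a mean r of 0.295 in run 2 and 0.266 in run 3. Other pairs gave -0.155 and -0.0773, so batch pairs the samples. Results of a fit with batch as a term are printed where they change a collagen's call or a count of collagen or pathway genes. Marker calls of run 3 are from the fit without that term except for Pi16, while run 2 marker calls from the fit with it are also printed. Counts of 2 libraries of a group differed beyond sampling noise in all 38 pairs (chi-square per degree of freedom 4.22 to 74.6). The method was tested on simulated counts with the same spread for every gene and no batch effect. Such counts do not cover the spread of these libraries, and the outcome is not used here. Alternatives were RLE size factors, DESeq2, no filter, a mean CPM filter of 1, a fit of only the groups compared, the batch term, each library left out, library totals in place of TMM for levels, and, chosen after seeing the data, all of batch P19 left out and, for chain ratios, a sign-flip test within batches.

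All members may be named. Values of every library are given for called members among 15 core collagens and for the 4 largest called rises and falls with a mean of at least 1 CPM. The members, the pathway and marker lists and these rules were chosen with earlier results of these data known.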

Additional observations from a re-analysis of the deposited data

Results flagged for a closer look

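Each of 30 collagen genes with a count of at least 10 was looked at in groups of 4 libraries, 145 sets in all, for a library that lay far from the other 3 by Dixon's 95% criterion for the gap to the nearest library over the whole range. Chance alone flags about 1 in 20 groups. In 15 sets 1 library stood apart, and in 11 of them it belonged to batch P19.

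In long CASC15 knockdown under AngII, the P19 library was low for Col11a2 at 7.27 CPM (the others 19.1 to 20.9), for Col27a1 at 4.28 CPM (16.4 to 18.3) and for Col5a2 at 435 CPM (799 to 822). It was high for Col12a1 at 10.6 CPM (5.03 to 5.61) and for Col8a1 at 242 CPM (119 to 135). In untreated long CASC15 knockdown, P19 was low for Col16a1 at 94.7 CPM (166 to 172). Under PDGF-BB, P19 was low for Col15a1 at 6.36 CPM (20.6 to 23.4) and high for Col4a1 at 220 CPM (186 to 189). In AngII control cells P19 was high for Col4a1 at 210 CPM (176 to 182). In untreated control cells P19 was low for Col5a1 at 113 CPM (174 to 182) and for Col9a3 at 0.44 CPM (1.13 to 1.2).

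The 4 sets outside P19 were Col1a1 in AngII control cells, with P16 at 2270 CPM (1970 to 2020), Col4a1 in untreated control cells, with P16 at 198 CPM (181 to 183), and Col9a3 in 2 groups. For Col9a3 P17 stood at 0.432 CPM under AngII in long CASC15 knockdown (0.749 to 0.797) and P18 at 1.47 CPM in untreated knockdown (0.531 to 0.612).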

How the results depend on the processing

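In long CASC15 knockdown the number of members called lay between 17 and 24 without treatment and between 18 and 23 under AngII over the alternatives run, and under PDGF-BB between 13 and 23, while the share of all genes called ran from 9.34% to 40.6%, from 9.8% to 41.3% and from 17.3% to 54.5%. No member was called under AngII treatment or for the difference in AngII response in any of them. The counts of run 2 depended on the processing. For the libraries labelled total CASC15 knockdown, 1 member was called (2.07% of all genes), but 4 with DESeq2 (4.68%), 13 with no filter on low counts (4.44%), 9 when only the groups compared were fitted (7.34%) and 19 with the replicate block (batch as a term, 14.4%), and 0 to 1 on leaving out each library (0.0247% to 1.16%). For overexpression, 0 were called (1.65%), but 4 with DESeq2 (5.26%), 10 with no filter (4.56%), 9 with the replicate block (17.7%) and 3 without batch P19 (5.57%), and 0 to 2 on leaving out each library (0.561% to 5.69%): Col11a1 and Col3a1 without the P19 plasmid control, Col5a2 without the P19 overexpression library. The cause was not tested. The replicate block ended no collagen call and added those named in the report.

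No log2 fold change of a called member reversed. Of 268 values in untreated knockdown 1 lost its call, of 296 under AngII 10, of 236 under PDGF-BB 16 and of 10 in the labelled total knockdown 3. With library totals in place of TMM 4 of 135 mean levels moved by more than their SD: Col1a2 2110, Col6a1 924 and Col6a2 549 CPM in control GapmeR cells and Col4a1 367 CPM in the labelled total knockdown. Depth limits Col6a6, Col22a1, Col24a1 and Col9a3 in run 3, which had at most 27 counts in any library of that run. Groups of 2 libraries limit the comparison of the labelled total knockdown.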
